A study of Mus musculus with 14 samples.

Results

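The genes described here encode the subunits of the transcription factor NF-kB, its inhibitors and the kinase complex that frees it. The list named 10 genes, Nfkb1, Nfkb2, Rel, Rela, Relb, Nfkbia, Nfkbib, Nfkbie, Ikbkb and Ikbkg. Probe sets were taken where the array annotation gives 1 of these as the single gene symbol, which found 21 probe sets of 9 genes, of 15964 genes named on the arrays. No probe set carried the symbol Nfkb1. Primary mouse spleen cells enriched for follicular dendritic cells (labelled FDC-E) were compared with spleen cells depleted of them (FDC-D), on oligonucleotide arrays of 3 sets, called A, B and C after the sample titles. Sets A and C each held 2 depleted and 3 enriched samples, and set B held 2 of each. Follicular dendritic cells (FDC) are stromal cells that hold antigen for B cells in lymphoid follicles. The sources used here give no strain, age, isolation method or treatment of the mice. Whether each sample stands for its own animal is not stated either. The p-values therefore reflect only how far these samples vary, and that variation may be technical.

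NF-kB proteins bind DNA as pairs of subunits. In the canonical branch, signals from TNF, interleukin 1 or Toll-like receptors activate the IKK complex, in which the kinase IKKβ (Ikbkb) works with the scaffold NEMO (Ikbkg). The complex marks the inhibitors IκBα (Nfkbia), IκBβ (Nfkbib) and IκBε (Nfkbie) for destruction, so that p50 (from Nfkb1), RelA (Rela) and c-Rel (Rel) enter the nucleus. In the non-canonical branch, receptors such as the lymphotoxin β receptor act through the kinases NIK (Map3k14) and IKKα (Chuk) to process p100 (Nfkb2) to p52, which pairs with RelB (Relb). That branch is needed for FDC networks and lymphoid organs to form.

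The fractions differed widely in cell makeup. All 6 FDC markers on set A rose, and their summed intensity was 3544 to 3899 in depleted samples against 19172 to 22495 in enriched ones. Endothelial markers summed to 1395 to 1436 and 15962 to 17999, with 6 of 6 rising, and macrophage markers to 6905 to 8076 and 17731 to 20439, with 7 of 7 rising. B cell markers summed to 20143 to 20329 on depleted and 6136 to 7934 on enriched arrays, with 5 of 6 falling, and T cell markers to 6184 to 6452 and 1696 to 1865, with 6 of 7 falling. Fibroblast markers (5 of 6) rose too, platelet markers (3 of 4) rose, and neutrophil (4 of 6) and NK cell (4 of 5) markers fell. No marker was at 0. Over all tested probe sets of set A, 23.1% rose and 17.9% fell. Some markers that rose, such as Cxcl13, Coch, Cdh5 and Cldn5, passed the intensity filter given below only through the enriched arrays. Some that fell, such as Cd3d and Cd3g, passed it only through the depleted arrays. The part of these cell types in the results on NF-kB genes was not tested. In such bulk samples, fewer cells of a type and less RNA per cell cannot be told apart.

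The inhibitor genes were higher and the IKKβ gene was lower in FDC-enriched cells. A probe set was tested with limma if 2 or more arrays gave it an intensity past their 40th percentile, and it passed at a Benjamini-Hochberg adjusted p under 0.05. Of the 9 genes with a probe set, 8 had a tested one. With the brightest tested probe set standing for a gene, Nfkbia, Nfkbib, Nfkbie, Rela and Relb rose, Ikbkb fell, and Nfkb2 and Ikbkg did not pass. Over all 12273 genes tested in this way, 19.2% rose and 14.4% fell, 33.7% in all. The median log2 fold change was 0.27 for the 8 genes and 0.02 for all genes. By probe set, 8 of 17 tested member probe sets rose and 4 fell, beside a share of 32.2% called in either direction over the 3 sets. On set A 23.1% of tested probe sets rose and 17.9% fell. The shares on set B were 19.4% and 17%, and those of set C 9.47% and 8.67%. The groups did not overlap for 16 of the 17, which also held for 63.3% of the tested probe sets of set A, 67.7% of set B and 47.6% of set C.

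Several of the calls depended on how arrays were scaled or on 1 array. Where a left-out array leaves 1 in its group, that array is assumed to vary like the other group, so a call can be lost while the fold change stays as large. The deposited scale, kept here, gives enriched arrays slightly higher medians, 265 to 279 against 244 to 251 on set A. Scaling arrays to the same median moved the median log2 fold change of all probe sets on set A by -0.11. The share of rises among called probe sets there was 56.3% on the deposited scale, 41.3% under quantile normalization and 38.7% under median scaling. Under median scaling Rela and Nfkbia rose, under quantile normalization only Rela did by the brightest probe set, and Ikbkb fell under both. Without depleted sample 2, 1 gene rose, Nfkbia, and Ikbkb fell. Nfkbia passed at both set A probe sets under both scalings. No tested member probe set changed its direction in any alternative in which it was fitted.

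**Figure D1:**
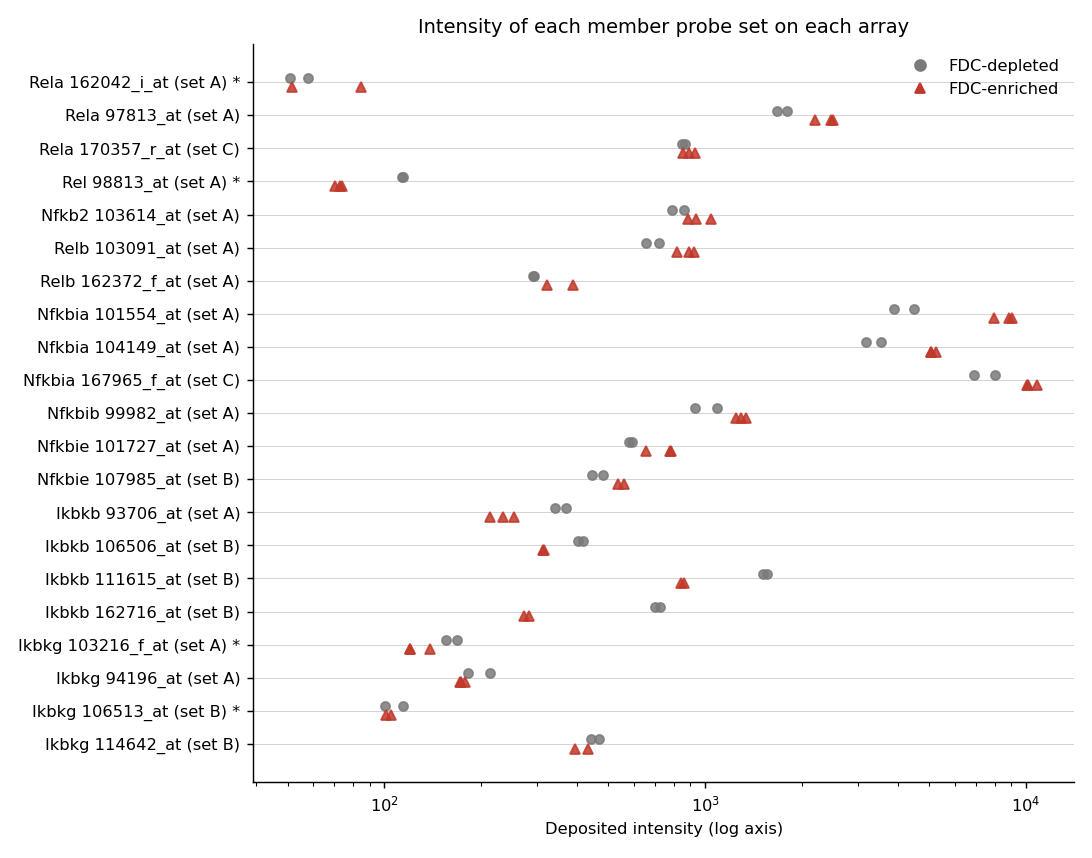
Deposited intensity (log axis) of each of the 21 member probe sets on each array, with grey circles for FDC-depleted and red triangles for FDC-enriched arrays. An asterisk marks the 4 probe sets under the filter on dim signal. All 3 Nfkbia probe sets lie higher, and all 4 Ikbkb probe sets lower, on every enriched than on every depleted array.

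**Figure D2:**
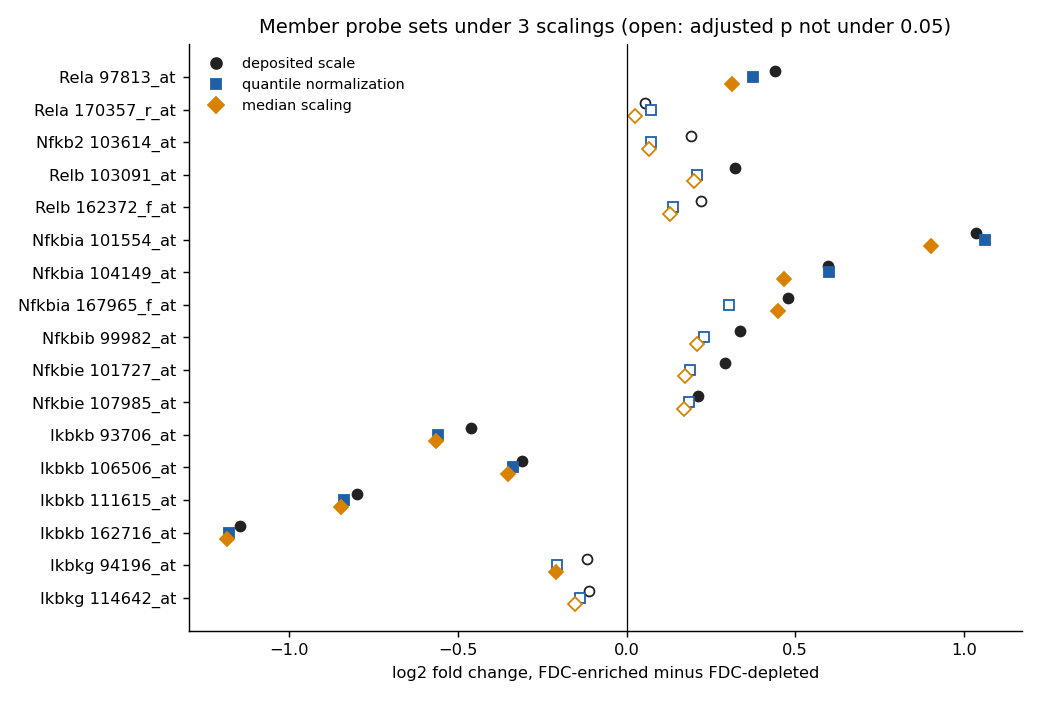
Log2 fold change (enriched minus depleted) of the 17 tested member probe sets on the deposited scale, after quantile normalization and after scaling to the same median. Open symbols did not reach an adjusted p under 0.05. All 3 scalings leave each probe set on the same side of 0, while Relb, Nfkbib and Nfkbie pass only on the deposited scale.

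NF-kB induces several of its own regulators, so the promoter windows of members with the NF-kB consensus are shown, with capitals marking each match. The windows are those of RefSeq on GRCm38.p6, from 250 bases before to 50 after an annotated start, and 7 members had 1 or more of them, 12 windows in all. Nfkb1, Relb and Ikbkb had no entry. The consensus was searched on both strands, overlaps included. It matched in the windows of 4 of the members and in 6 of the 12 windows, 2 of which share the same match, against 4.51% of all 32851 windows in the table. The first of 3 Nfkb2 windows is printed. Members that rose and members that did not both hold matches, and a match is not a measured binding site.
Nfkbia, chr12:55492598-55492897, minus strand: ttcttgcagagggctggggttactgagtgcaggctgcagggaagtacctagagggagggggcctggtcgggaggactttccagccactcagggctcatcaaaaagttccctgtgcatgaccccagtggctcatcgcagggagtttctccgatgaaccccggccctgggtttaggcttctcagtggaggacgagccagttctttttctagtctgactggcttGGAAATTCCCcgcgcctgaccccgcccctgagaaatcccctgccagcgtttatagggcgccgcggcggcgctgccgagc
Nfkbie, chr17:45555450-45555749, plus strand: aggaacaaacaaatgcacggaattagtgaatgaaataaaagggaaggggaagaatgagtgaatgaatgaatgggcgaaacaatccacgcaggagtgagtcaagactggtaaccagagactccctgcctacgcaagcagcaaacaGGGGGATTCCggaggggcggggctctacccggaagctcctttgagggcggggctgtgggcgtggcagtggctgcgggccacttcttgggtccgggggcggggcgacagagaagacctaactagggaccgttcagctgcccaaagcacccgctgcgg
Nfkb2, chr19:46304487-46304786, plus strand: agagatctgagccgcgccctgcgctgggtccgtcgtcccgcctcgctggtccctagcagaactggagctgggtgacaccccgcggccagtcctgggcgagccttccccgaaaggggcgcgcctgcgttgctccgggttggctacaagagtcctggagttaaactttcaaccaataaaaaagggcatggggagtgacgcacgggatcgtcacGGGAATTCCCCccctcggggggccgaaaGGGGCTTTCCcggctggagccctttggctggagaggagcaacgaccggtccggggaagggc
Rel, chr11:23770920-23771219, minus strand: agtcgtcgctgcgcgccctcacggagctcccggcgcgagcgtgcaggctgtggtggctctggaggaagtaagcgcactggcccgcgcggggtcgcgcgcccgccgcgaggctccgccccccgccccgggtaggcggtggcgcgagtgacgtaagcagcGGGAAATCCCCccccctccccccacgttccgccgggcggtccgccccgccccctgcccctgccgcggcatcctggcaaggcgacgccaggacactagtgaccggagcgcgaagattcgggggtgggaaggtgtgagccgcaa
The Nfkbia and Nfkbie windows held 1 match position each. Those of Nfkb2 and Rel held 3 and 2, and in both windows a pair of these overlapped. No match was found in the windows of Rela, Nfkbib or Ikbkg, which says only that these letters do not occur there.

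Nfkbia had the largest rise among the members on the deposited scale. IκBα, its product, holds RelA-containing pairs in the cytoplasm and is resynthesised after each activation. Probe set 101554_at on set A had intensities of 4463 and 3872 in the depleted samples and 7965, 9033 and 8871 in the enriched samples. Every enriched value was thus above both depleted values by a wide margin. The fold change was 2.05, a log2 difference of 1.03 (SE 0.09, adjusted p = 4.98e-05), in a set where 41% of tested probe sets were called. A separate probe set, 104149_at, read 3531 and 3180 against 5257, 5051 and 5052, a 1.51-fold rise (log2 0.60, SE 0.08, adjusted p = 0.000436). On set C, 167965_f_at read 7979 and 6904 against 10152, 10088 and 10830. That was a 1.39-fold rise (log2 0.48, SE 0.06, adjusted p = 0.00101), where 18.1% of tested probe sets of the set were called. The suffix _f marks probes shared within a sequence family. The 3 probe sets thus rose by different amounts, and the groups did not overlap at any of them. The set C probe set, the brightest of the 3, rose by an amount close to that of Rela (log2 0.44, SE 0.09). Quantile normalization took the set C probe set to a log2 fold change of 0.30 (limma, adjusted p = 0.205), below that of Rela (0.38).

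Nfkbib and Nfkbie, which encode the other 2 classical inhibitors, rose by less. Nfkbib (99982_at) read 1088 and 930.5 in depleted and 1341, 1292 and 1250 in enriched samples of set A. All enriched values were higher, by 1.26-fold (log2 0.34, SE 0.09, adjusted p = 0.0158). The call was lost under quantile normalization (0.0743), median scaling (0.105) and without depleted sample 2 (0.207). Nfkbie (101727_at) read 578.5 and 590.3 against 782.9, 655.5 and 775.4 on set A, with enriched sample 2 nearest to the depleted pair. The rise was 1.22-fold (log2 0.29, SE 0.09, adjusted p = 0.0309). On set B, 107985_at read 479.5 and 442.8 against 558.4 and 535.3, a rise of 1.16-fold (log2 0.21, SE 0.07, adjusted p = 0.0294), in a set where 36.4% of tested probe sets were called. Both Nfkbie calls were lost under both scalings, with adjusted p = 0.174 and 0.191 on set A and 0.0528 and 0.0768 on set B. They were also lost without depleted sample 2 (log2 0.31, 0.139 on set A, and log2 0.16, 0.216 on set B), on set A without depleted sample 1 (log2 0.28, 0.171) or enriched sample 3 (0.1), and on set B without enriched sample 2 (0.0893).

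**Figure D3:**
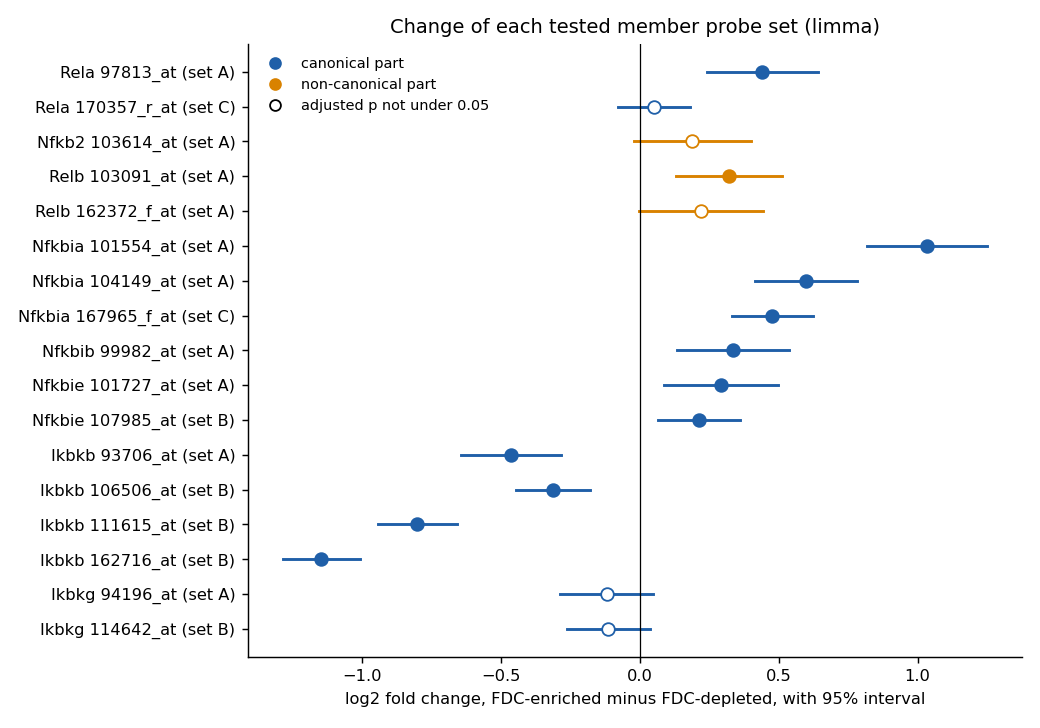
Log2 fold change (enriched minus depleted) with its 95% interval for each tested member probe set, in blue for the canonical and orange for the non-canonical part. Filled points have an adjusted p under 0.05. The 4 Ikbkb probe sets lie between -1.14 and -0.31 and the 3 Nfkbia probe sets between 0.48 and 1.03, with all others between these groups.

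Of the canonical DNA-binding subunits, Rela rose at its main probe set. Rela encodes RelA (p65), the subunit with the activation domain of the common p50 pair. Probe set 97813_at on set A read 1796 and 1676 in depleted and 2204, 2500 and 2469 in enriched samples. The groups did not overlap, and the rise was 1.36-fold (log2 0.44, SE 0.09, adjusted p = 0.00397). It was kept under both scalings and lost only without depleted sample 2 (log2 0.39, adjusted p = 0.0581), of the settings tried. On set C, 170357_r_at read 846.8 and 865.1 against 932.5, 851.1 and 888.1, so the groups overlapped and the probe set did not pass (log2 0.05, 95% interval -0.08 to 0.18). That interval lies below the one of the set A probe set (0.24 to 0.64), so the tested Rela probe sets disagreed. The other one, 162042_i_at, lay under the filter at 57.9 and 50.9 against 84.9 and 51.8, and had no value in enriched sample 2.

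Rel, the lymphocyte-rich c-Rel subunit, had lower values in the enriched samples, at a signal under the filter. Its single probe set, 98813_at, read 114.0 and 113.8 in the depleted samples and 70.4, 72.9 and 73.9 in the enriched samples. All enriched values were lower, and groups did not overlap in either direction for 38.7% of the probe sets under the filter on set A, 54% on set B and 34.7% on set C. It was not tested in the main comparison. With no filter the log2 fold change was -0.33 (SE 0.05, adjusted p = 0.00116), a 1.26-fold fall on the scale with the pseudocount. The falls of B and T cell markers given above went with it, and their part was not tested.

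Of the non-canonical subunits Relb rose and Nfkb2 did not pass. Relb, whose product pairs with p52, read 716.1 and 652.4 in depleted and 818.0, 892.1 and 923.1 in enriched samples at 103091_at. The groups did not overlap, and the rise was 1.25-fold (log2 0.32, SE 0.08, adjusted p = 0.0146). That call was lost under quantile normalization (0.0814) and median scaling (0.108). It was also lost at a log2 fold change of 0.38 without depleted sample 1 (0.0509), with 1 depleted array then left, and at 0.26 without depleted sample 2 (0.161). Without enriched sample 3 the value was 0.29 (0.0563). The second Relb probe set, 162372_f_at, had no value in enriched sample 2 and was fitted on the other arrays. It read 291.5 and 292.3 against 388.9 and 322.3 and did not pass (log2 0.22, adjusted p = 0.108).

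Nfkb2, which encodes p100, the precursor of p52 and itself an inhibitor of RelB, did not pass. Probe set 103614_at read 861.9 and 787.8 in depleted and 882.2, 1045 and 937.9 in enriched samples. Enriched sample 1 lay close to depleted sample 1, and the log2 fold change was 0.19 (95% interval -0.02 to 0.40, adjusted p = 0.134). The value was 0.07 under both quantile normalization (adjusted p = 0.53) and median scaling (0.593). It was 0.13 without enriched sample 2 and 0.24 without enriched sample 1, the only alternative in which it passed (adjusted p = 0.0399). Canonical and non-canonical subunits were compared array by array on set A, as the log2 change of Rela from its depleted mean minus that of Relb or Nfkb2. Rela exceeded Relb by 0.12 ± 0.04 (SD, n = 3) and Nfkb2 by 0.25 ± 0.06 (SD, n = 3) on enriched arrays. The depleted arrays lay at -0.0118 and 0.0118 for Relb and at -0.0109 and 0.0109 for Nfkb2, below all enriched arrays. This order rests on 1 Rela probe set. The other tested one, on set C, changed by log2 0.05, less than Relb (0.32) and Nfkb2 (0.19) did on set A. The exact two-sided permutation p was 0.1 for each pair, adjusted or not over the 2 pairs, which is the smallest that 2 against 3 arrays allow, so neither difference could pass. Of the 7 canonical members with a probe set, 6 were tested, of which 4 rose and 1 fell. Both non-canonical members were tested, and 1 rose. Among all genes 19.2% rose and 14.4% fell. The median log2 fold changes were 0.27 and 0.26 on the deposited scale, 0.21 and 0.14 under quantile normalization and 0.19 and 0.13 under median scaling. With no filter, where Rel joined the canonical part, the order was reversed (0.21 and 0.26). It was also reversed without enriched sample 1 (0.26 and 0.30).

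**Figure D4:**
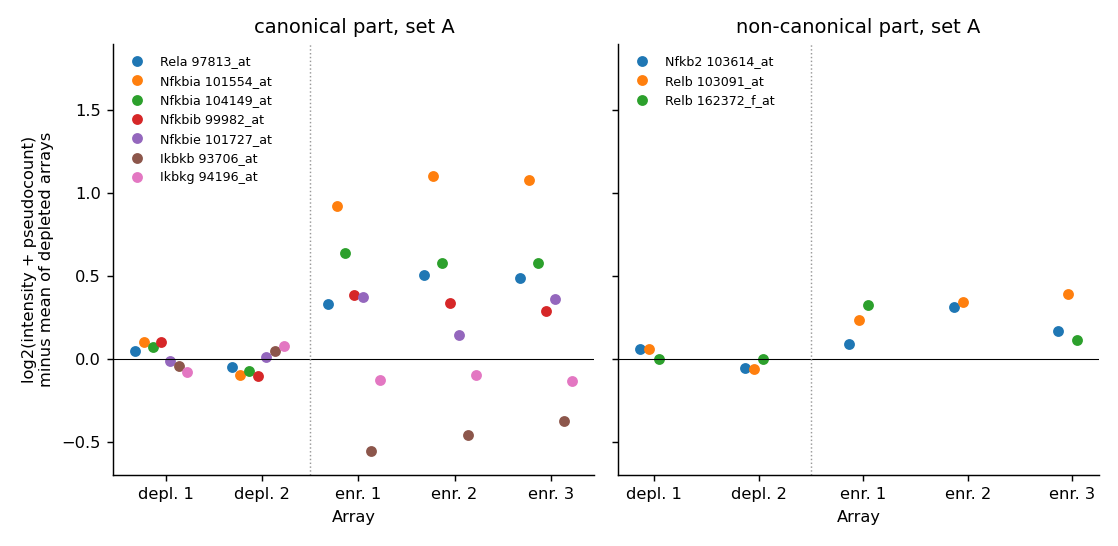
Log2(intensity + pseudocount) of each tested set A member probe set minus its mean over the 2 depleted arrays, by array, for the canonical part (left) and the non-canonical part (right). Nfkbia lies at 0.92 or above at 101554_at on the enriched arrays, Relb 0.23 to 0.39 at 103091_at and Nfkb2 0.09 to 0.31, while Ikbkb lies at -0.55 to -0.37.

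Ikbkb, the gene of the catalytic subunit that phosphorylates the inhibitors in the canonical branch, fell at all 4 of its probe sets. The brightest, 111615_at on set B, read 1561 and 1520 in depleted and 857.9 and 843.0 in enriched samples, 1.74-fold lower in the latter (log2 -0.80, SE 0.06, adjusted p = 4.83e-06). Probe set 162716_at read 723.9 and 699.7 against 272.3 and 282.5, a 2.21-fold fall (log2 -1.14, SE 0.06, adjusted p = 3.16e-07). For both, values within a group differed far less than the groups did. Probe set 106506_at on set B read 416.8 and 403.0 against 315.9 and 313.3, a 1.24-fold fall (log2 -0.31, SE 0.06, adjusted p = 0.00217). On set A, 93706_at read 341.1 and 368.3 against 213.1, 233.9 and 253.3, a 1.38-fold fall (log2 -0.46, SE 0.08, adjusted p = 0.00173). The falls thus ranged widely in size between probe sets on the same arrays and were kept in every alternative in which each probe set was fitted, left-out arrays included. B cell and T cell markers fell in the same arrays (ranges above), and their part in this fall was not tested.

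Ikbkg, the gene of the scaffold NEMO, did not pass. On set B, 114642_at read 466.1 and 440.9 in depleted and 394.5 and 432.8 in enriched samples (log2 -0.11, 95% interval -0.26 to 0.04, adjusted p = 0.230). On set A, 94196_at read 182.4 and 213.2 against 173.4, 178.9 and 172.2 (log2 -0.12, 95% interval -0.29 to 0.05, adjusted p = 0.240). Enriched values were the lower ones at both, by little against the spread of the depleted samples. The set A probe set passed under median scaling at a log2 fold change of -0.21 (adjusted p = 0.0465). A further pair lay under the filter, 103216_f_at on set A and 106513_at on set B. Enriched values lay below the depleted ones at the first, whose log2 fold change with no filter was -0.22 (adjusted p = 0.0408). The groups overlapped at the other, with -0.03 (adjusted p = 0.712).

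The rest of the pathway was read from lists of ligands, receptors, signalling proteins and targets, with the brightest tested probe set standing for a gene. Of 82 listed genes 71 had a probe set and 67 a tested one, of which 32 rose, 17 fell and 18 did not pass. Over all genes 19.2% rose and 14.4% fell. The median log2 fold change was 0.12 for the tested list genes and 0.02 for all genes. Among ligands, 2 rose and 2 fell of 6 tested. Tnf averaged 627.0 ± 84.3 (SD, n = 2) in depleted and 1787 ± 169 (SD, n = 3) in enriched samples, a 2.62-fold rise. Il1a, an interleukin 1 gene, rose 5.07-fold and passed the filter on dim signal only through the enriched arrays. Ltb, whose product signals to the lymphotoxin β receptor, averaged 5293 ± 134 (SD, n = 2) in depleted and 688.6 ± 88.0 (SD, n = 3) in enriched samples, a 6.95-fold fall. Its partner Lta fell 1.23-fold, a call lost without depleted sample 2 (adjusted p = 0.249). The other tested Lta probe set, also on set A, had overlapping groups and did not pass (log2 -0.12, adjusted p = 0.464). Tnfsf13b, the BAFF gene, did not pass at a log2 fold change of 0.11 (0.04 to 0.18 over the alternatives). Il1b did not pass at -0.44 and rested on the depleted samples. Its value was -0.96 without depleted sample 1 (adjusted p = 0.00686), 0.08 without depleted sample 2 (0.809) and -0.48 with the replicate block (0.014).

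Of 9 tested receptor genes 4 rose, 1 fell and 4 did not pass, where 19.2% of all genes rose and 14.4% fell. Il1r1, the interleukin 1 receptor gene, rose 2.96-fold and passed the filter on dim signal only through the enriched arrays. Tnfrsf1a, the main TNF receptor gene, rose 1.95-fold and Tlr2, a Toll-like receptor gene, 1.81-fold. The calls of Il1r1, Tnfrsf1a and Tlr2 were kept under every setting tried. Ltbr, the receptor of the non-canonical branch, rose 1.17-fold, a call lost under 7 of 14 settings, among them both scalings and leaving out depleted sample 1 or 2 or enriched sample 2 or 3 (adjusted p up to 0.274). Cd40, a receptor of B cells, fell 1.15-fold, a call lost under 6 of 13 settings, among them leaving out depleted sample 1 or 2 or enriched sample 3 (adjusted p up to 0.274). Map3k14, the gene of the non-canonical kinase NIK, averaged 270.5 ± 32.8 (SD, n = 2) in depleted and 212.3 ± 11.7 (SD, n = 3) in enriched samples of set C, a 1.22-fold fall (limma, adjusted p = 0.0272). That call was lost without depleted sample 2 or enriched sample 1 or 3, up to an adjusted p of 0.178. No probe set carried the symbol Chuk.

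Adaptors and upstream kinases gave 8 falls and 2 rises among 18 tested, where 14.4% of all genes fell and 19.2% rose. Prkcb, the kinase that links the B cell receptor to IKK, averaged 2644 ± 14.6 (SD, n = 2) in depleted and 1005 ± 153 (SD, n = 3) in enriched samples, a 2.51-fold fall. Of its other tested probe sets, those on sets A and C fell, and that on set B did not pass (log2 -0.15, adjusted p = 0.074). Tradd, an adaptor of TNF receptors, fell 1.65-fold, Tab2, which recruits the kinase TAK1, 1.51-fold, and Birc3, a ubiquitin ligase gene and itself an NF-kB target, 1.47-fold. Tradd did not pass without depleted sample 2 or enriched sample 3, up to an adjusted p of 0.146, and its other tested probe set, on set C, did not pass at a log2 difference of 0.07 (adjusted p = 0.481). Traf1 and Myd88 rose 1.18-fold each, and both calls were lost under both scalings and without depleted sample 1 or 2 or enriched sample 3, up to adjusted p = 0.306 and 0.257. Of the 3 atypical inhibitors, Nfkbiz rose 1.81-fold and Bcl3 1.17-fold, the latter lost in the same settings (adjusted p up to 0.396), and Nfkbid, induced by antigen receptors, fell 1.44-fold. The other tested Nfkbiz probe set, on set A with no value in enriched sample 2, did not pass (log2 0.16, adjusted p = 0.292). Of the 8 brakes tested, 3 rose and 2 fell. Tnip1, a partner of the deubiquitinating enzyme A20, averaged 894.0 ± 85.2 (SD, n = 2) in depleted and 2591 ± 320 (SD, n = 3) in enriched samples, a 2.72-fold rise. Tank and Tnip2 rose 1.26- and 1.23-fold, with Tank lost under both scalings and without each array but enriched sample 1 (adjusted p up to 0.180) and Tnip2 without depleted sample 2 (adjusted p = 0.0777). The deubiquitinase genes Cyld and Otulin fell 1.61- and 1.45-fold. Tnfaip3, the A20 gene, was chosen for mention after its values were seen. Its log2 difference of -0.48 did not pass (adjusted p = 0.102). It passed under quantile normalization (0.0365), under median scaling (0.0235), with the replicate block (0.0084) and, at -0.24, without enriched sample 1 (0.0463).

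Among the pathway lists, those of known target genes had the highest medians. Of 18 tested targets of the canonical branch 15 rose, 2 fell and 1 did not pass, with a median log2 fold change of 1.15. Over all genes 19.2% rose and 14.4% fell. Some of the genes that rose passed the filter on dim signal only through the enriched arrays. Among them were Cxcl10 and Ccl2, and Cxcl13 and Glycam1 of the non-canonical targets. Cxcl10 averaged 132.6 ± 2.47 (SD, n = 2) in depleted and 2650 ± 52.7 (SD, n = 3) in enriched samples, a 12.4-fold rise. Cxcl1, a neutrophil-attracting chemokine gene, averaged 288.1 ± 22.3 (SD, n = 2) and 4457 ± 264 (SD, n = 3), a 12.1-fold rise. Ccl2 rose 8.71-fold and Icam1 4.73-fold. Ccl5, a chemokine gene of T and NK cells, fell 1.70-fold and Myc 1.54-fold, and Ptgs2 did not pass at a log2 difference of 0.27. The Ptgs2 value was -0.02 without depleted sample 1 (adjusted p = 0.945) and 0.56 without depleted sample 2 (0.0433). Of 5 tested targets of the non-canonical branch 4 rose. Cxcl13 rose 11.9-fold, Glycam1 8.83-fold and Cxcl12 4.48-fold, and Madcam1 1.27-fold, which was lost under both scalings and without depleted sample 1 or 2 (adjusted p up to 0.127). The other tested Madcam1 probe set, also on set A, did not pass (log2 0.16, adjusted p = 0.169). The median of the 5 tested genes was 2.16. Cxcl13 and Madcam1 are also among the FDC markers above. Endothelial and fibroblast markers rose on the same arrays, and their part in these rises was not tested.

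**Figure D5:**
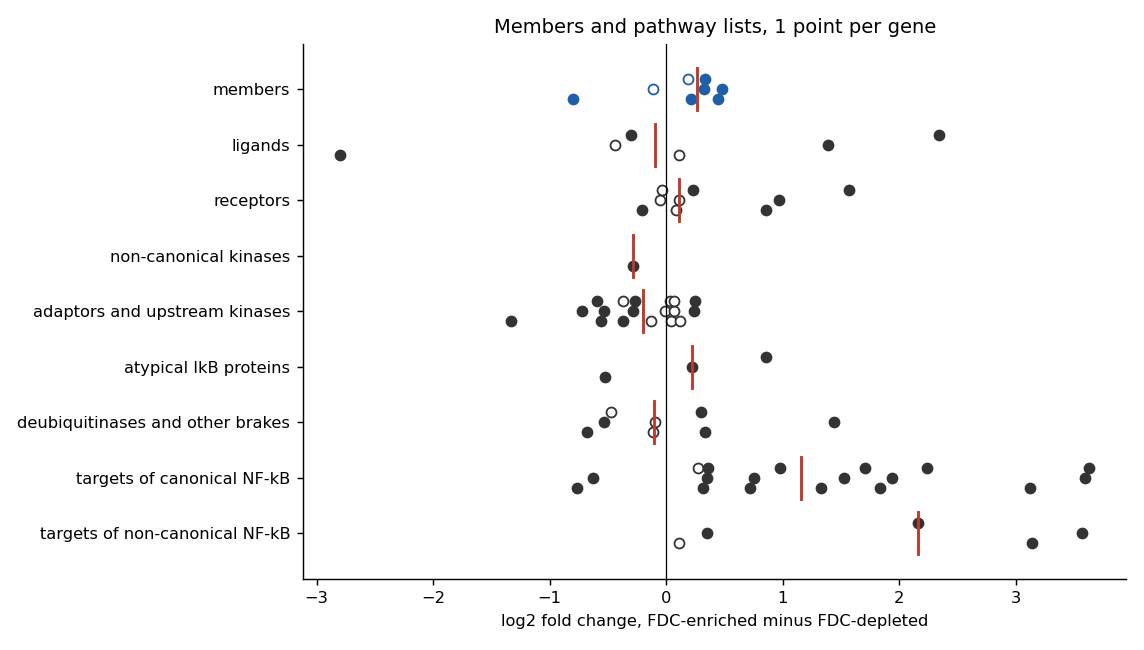
Log2 fold change (enriched minus depleted) of the 8 tested members (blue) and of the tested genes of each pathway list, 1 point per gene at its brightest probe set, filled where the adjusted p was under 0.05. Red bars are medians, 0.27 for the members, 1.15 for targets of the canonical branch and -0.20 for adaptors and upstream kinases.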

How the data were processed

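For each array set the authors deposited linear intensity values, with 12488, 12477 and 11934 probe sets on A, B and C. The sources used here do not say how probes were summarised or arrays scaled. Enriched sample 2 had no value for 893 probe sets of set A, which were fitted on the other arrays. Trimmed means of arrays differed by at most 1.08-fold within a set, so the deposited scale was kept. Probe sets were named through the array annotation, with symbols updated through Entrez identifiers to GRCm38.p6. Each set was fitted alone in limma 3.58.1 (two-sided, with an intensity trend in the prior variance) under R 4.3.3 on log2(intensity + pseudocount), with the 20th percentile of positive values as pseudocount (88.6 on A, 81.3 on B, 52.9 on C). This scale also holds for fold changes, which are understated for dim genes. Benjamini-Hochberg adjustment ran over all tested probe sets of a set, 7889, 7792 and 7370. The number of arrays limits the precision. Means carry SDs. By rule, every member and its tested probe sets were named, and up to 4 called genes per direction of each pathway list by fold change, with both non-canonical kinases. Marker lists are given by sums. List genes that did not pass were named after their values were seen. Members and lists were chosen with earlier results of these data known. Alternatives were other pseudocounts, filters, scalings, an untrended prior, joint adjustment, a replicate block and each array left out. Scripts were tested on simulated data.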

Additional observations from a re-analysis of the deposited data

How the results depend on the processing

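The direction of the 17 tested member probe sets was the same in every alternative in which each was fitted, and so were the Ikbkb calls. The stricter filter covered 15 of them, the block 12, and leaving out depleted sample 1 or 2 covered 16 each. Leaving out enriched sample 1, which set B lacks, covered 12. The count of member genes called, 6 on the deposited scale, was 2 under quantile normalization and 3 under median scaling, with 1 and 2 rising in place of 5. With no filter 2 members fell, Rel beside Ikbkb. Leaving out 1 sample gave 2 to 7 members called, 1 to 6 rising, lowest without depleted sample 2. Pathway genes that fell numbered 10 to 18 with 1 sample left out, lowest without depleted sample 2, against 17. Probe sets called on set A, 3237 in the main comparison, numbered 2024 to 3665 with 1 array left out (2024 and 2039 without depleted sample 1 or 2). On set C they numbered 810 to 1316 against 1337 (810 without depleted sample 2 and 881 without enriched sample 3). With the replicate number as a block, set C gave 864 called probe sets and 5 member genes were called. Relb was lost (limma, adjusted p = 0.0669), as was the set A probe set of Nfkbie (0.0939). Enriched sample 3 has no depleted sample of its number, so it does not inform the blocked difference. Rela 97813_at had a log2 fold change of 0.4178 both with the block and without enriched sample 3. On set B the groups share 1 number, so no block could be fitted and the unblocked values were kept there. The labels do not say whether equal numbers mark paired samples. Deviations of same-numbered samples correlated at 0.03 and 0.06 on set A and at -0.31 and -0.15 on set C. With so few arrays, these values cannot show whether samples were prepared together. Other pseudocounts, the stricter filter, the untrended prior and joint adjustment left the count of member genes called at 6. Requiring all tested probe sets on the array set of a gene's brightest one to pass gave 5. That rule leaves out probe sets on other sets, such as the set C one of Rela, which did not pass (limma, adjusted p = 0.582). Signal over background limits Rel and 3 further probe sets of Rela and Ikbkg, which lay under the filter.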
